A study of Mus musculus with 14 samples.

Results

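The genes described here are 9 members of the Notch pathway (the receptors Notch1, Notch2 and Notch3, the ligands Dll1, Jag1 and Jag2, and the target genes Hes1, Hey1 and Heyl) and Dlk2, which encodes a membrane protein related to the Notch ligands. They were chosen by gene name, and all 10 were found among the 23284 genes listed for untransfected cells and among the 23284 listed for siRNA-transfected cells. Dlk2 was included because its level was lower in TGF-β-treated cells, more so in EpH4 cells, so its values across the groups are given below as a description with no test.

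Notch receptors are single-pass membrane proteins that bind Delta-like or Jagged ligands on neighbouring cells. Binding exposes the receptor to proteases of the ADAM family and then to γ-secretase, and the freed intracellular part enters the nucleus, joins the DNA-binding protein Rbpj and switches on genes such as those of the Hes and Hey families of transcriptional repressors. In the mammary epithelium the pathway is known for its part in the choice between luminal and basal fates, and Jag1 is known as a TGF-β-responsive gene in several epithelial cell types.

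RNA was sequenced from 2 mouse mammary gland epithelial lines. EpH4 cells were kept in medium with 10% fetal bovine serum, and EpRas cells, the derivative of EpH4 transformed with H-RasG12V, in medium with 4%. The effects of the transformation and of serum therefore cannot be told apart. Each line was left untreated or was exposed to TGF-β3 at 1 ng/ml, with RNA taken at 48 h, and 2 libraries were made for each of these 4 groups. EpRas cells also received siNC, a control siRNA, or 1 of 2 siRNA pairs, each combining an siRNA against Etv4 with one against Etv5, and were left untreated or given the same TGF-β treatment, with 1 library for each of these 6 conditions. The study describes the untransfected libraries of a group as biological replicates, without saying how they were kept apart. P-values for untransfected cells measure the spread between these libraries. For transfected cells, with 1 library per condition, libraries of other conditions stood in for replicates.

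Levels were deposited as FPKM, a read count divided by transcript length and by the number of mapped reads. The 8 untransfected libraries held an estimated 3294000 to 7333000 mapped reads, and the 6 siRNA libraries 6763000 to 11768000. In untransfected cells the 6 epithelial markers examined (Cdh1, Epcam, Krt8, Krt18, Krt19 and Cldn4) summed to between 1655 and 4400 FPKM in each library, although Krt19 was listed at 0 in the EpH4 libraries. Their sum was 2545 to 2773 FPKM in untreated and 4033 to 4400 in treated EpH4 cells. In EpRas cells it was 2161 to 2937 FPKM without TGF-β and 1655 to 3210 with it. The 2 libraries of TGF-β-treated EpRas cells were farther apart than those of any other group, with a replicate correlation across genes of 0.912, compared with 0.957 to 0.982 elsewhere. Fewer cells with a transcript and less of that transcript per cell cannot be told apart in these bulk samples.

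Because Jag1, Dll1 and Dlk2 were the members with the largest fitted differences between groups, the sequences just before their RefSeq start sites in GRCm38.p6, the patch release of the mm10 build used for the deposited files, are shown for orientation. Capitals mark the letters CAGAC, a Smad-type element, or GTCTG, the same letters on the opposite strand, and in the second Dll1 sequence also TGATTCA, a match to the AP-1 element. Jag1 and Dll1 lie on the minus strand of chromosomes 2 and 17, Dlk2 lies on the plus strand of chromosome 17, and each line reads 5′ to 3′ along the gene.
Jag1, chr2:137116521-137116770: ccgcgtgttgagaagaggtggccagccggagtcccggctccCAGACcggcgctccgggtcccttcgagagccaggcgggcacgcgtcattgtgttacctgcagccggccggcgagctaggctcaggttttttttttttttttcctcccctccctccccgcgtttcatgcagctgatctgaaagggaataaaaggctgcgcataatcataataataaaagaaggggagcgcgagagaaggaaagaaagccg
Dll1, upstream of its first listed start, chr17:15375824-15376073: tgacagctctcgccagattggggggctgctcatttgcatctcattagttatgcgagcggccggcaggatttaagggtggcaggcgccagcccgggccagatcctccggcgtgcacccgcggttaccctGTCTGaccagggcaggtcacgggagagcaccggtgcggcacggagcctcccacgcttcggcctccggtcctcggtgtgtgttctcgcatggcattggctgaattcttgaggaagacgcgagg
Dll1, upstream of its second listed start, chr17:15376933-15377182: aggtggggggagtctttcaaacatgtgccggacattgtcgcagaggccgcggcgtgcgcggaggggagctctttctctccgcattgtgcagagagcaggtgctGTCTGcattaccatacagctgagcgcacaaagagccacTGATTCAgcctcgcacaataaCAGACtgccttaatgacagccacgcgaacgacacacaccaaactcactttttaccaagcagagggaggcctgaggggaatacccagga
Dlk2, upstream of its first listed start, chr17:46297233-46297482: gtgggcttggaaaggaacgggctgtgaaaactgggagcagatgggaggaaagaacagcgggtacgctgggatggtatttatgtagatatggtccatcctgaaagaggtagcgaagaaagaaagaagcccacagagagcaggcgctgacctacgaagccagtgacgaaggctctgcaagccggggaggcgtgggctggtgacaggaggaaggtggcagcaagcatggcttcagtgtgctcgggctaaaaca
Dlk2, upstream of its second listed start, chr17:46297678-46297927: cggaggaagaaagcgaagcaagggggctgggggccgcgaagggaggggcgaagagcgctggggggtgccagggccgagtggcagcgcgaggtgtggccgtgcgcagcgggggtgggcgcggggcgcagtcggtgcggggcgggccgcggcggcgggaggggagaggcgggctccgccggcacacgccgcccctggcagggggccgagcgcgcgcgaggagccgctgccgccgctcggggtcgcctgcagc

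Entries of this kind were found for 7 of the 10 members. CAGAC was present on either strand before the start of Jag1, of Notch3 and of both listed starts of Dll1, and 42.2% of the 32817 promoters of the same length held it. The Rbpj core TGGGAA was searched in the same way and was found in none of the 9 member entries (21.6% of all promoters held it), nor was the ETS-type element CCGGAAG (6.90% of all). The AP-1 element TGANTCA (6.75% of all) was present in a single member entry, the second Dll1 start at chr17:15376933-15377182. No match overlapped another. These matches describe the letters in the window and not binding.

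In the mm10 build the receptor genes lie at chr2:26457903-26516663 (Notch1, minus strand), chr3:98013527-98150361 (Notch2, plus strand) and chr17:32120820-32166852 (Notch3, minus strand), and the ligand genes at chr2:137081456-137116644 (Jag1), chr12:112907819-112929776 (Jag2) and chr17:15367354-15376872 (Dll1), all 3 on the minus strand. The target genes lie at chr16:30064384-30067796 (Hes1, plus strand), chr3:8663359-8667256 (Hey1, minus strand) and chr4:123233556-123249875 (Heyl, plus strand). Each deposited value is for the gene as a whole.

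Among the receptors, Notch2 had the highest FPKM in each of the 8 untransfected libraries. Notch1 was measured at 5.87 and 5.31 FPKM in untreated EpH4 cells, at 4.37 and 3.89 in TGF-β-treated EpH4 cells, at 4.24 and 4.16 in untreated EpRas cells and at 2.48 and 2.56 in treated EpRas cells. The order of the group means was therefore untreated EpH4, then untreated EpRas and treated EpH4 side by side with overlapping libraries, and treated EpRas lowest. Between the lines, Notch1 was lower in EpRas than in EpH4 cells under TGF-β by 0.54 ± 0.14 (SE) on the log2(FPKM + 1) scale (limma, Benjamini-Hochberg adjusted p = 0.0329). Without TGF-β the difference was -0.34 ± 0.14 (limma, adjusted p = 0.145). The change with TGF-β was -0.36 ± 0.14 in EpH4 cells (adjusted p = 0.174) and -0.56 ± 0.14 in EpRas cells (adjusted p = 0.0904), with no overlap between treated and untreated libraries in either line. Notch1 reached 5 FPKM only in untreated EpH4 cells, its highest group. With no filter the adjusted p was 0.0133 for the lines under TGF-β and 0.0452 for TGF-β in EpRas cells (limma), and the call under TGF-β was made in 7 of 16 fits.

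Notch2 stood at 7.35 and 7.75 FPKM in untreated EpH4 cells, 9.85 and 9.37 in treated EpH4 cells, 7.13 and 6.24 in untreated EpRas cells and 6.35 and 5.97 in treated EpRas cells. Treated EpH4 cells had the highest values, and the EpRas groups overlapped each other. Under TGF-β, Notch2 was lower in EpRas cells by 0.57 ± 0.14 log2 units (limma, adjusted p = 0.0295), and without TGF-β the difference of -0.16 ± 0.14 did not pass the test (adjusted p = 0.502). Its TGF-β changes were 0.31 ± 0.14 in EpH4 and -0.10 ± 0.14 in EpRas cells (adjusted p = 0.242 and 0.810), and the difference between these changes, -0.41 ± 0.20, did not pass either (adjusted p = 0.522). The calls for Notch1 and Notch2 under TGF-β were both lost when either TGF-β-treated EpH4 library was left out, with adjusted p between 0.117 and 0.215. The Notch1 call was also lost without either untreated EpRas library (adjusted p = 0.0537) or library 1 of treated EpRas cells (0.0634), and the Notch2 call without library 2 of treated EpRas cells (0.0510).

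Notch3 was low in all groups, with 1.19 and 1.31 FPKM in untreated EpH4 cells, 0.549 and 0.758 in treated EpH4 cells, 0.505 and 0.175 in untreated EpRas cells, and 0.103 and 0 in treated EpRas cells. The untransfected values rest on 0 to 81 reads per library. The library listed at 0 could hold up to 0.0989 FPKM, the level of 3 reads. Notch3 was below 5 FPKM in all libraries and therefore was not among the genes tested, and its libraries followed the order of the group means without overlap between neighbouring groups. An antisense gene, Gm17276, covers 21024 bases of the Notch3 locus.

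The ratio of Notch2 to Notch1, a measure chosen after the values were seen and given with no test, lay between 1.25 and 1.46 in untreated EpH4 cells and between 1.501 and 1.68 in untreated EpRas cells. With TGF-β it lay between 2.25 and 2.41 in EpH4 cells and between 2.34 and 2.56 in EpRas cells. All 4 treated libraries were thus above all 4 untreated ones, with Notch1 lower in treated libraries of both lines and Notch2 higher in treated EpH4 libraries.

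**Figure D1:**
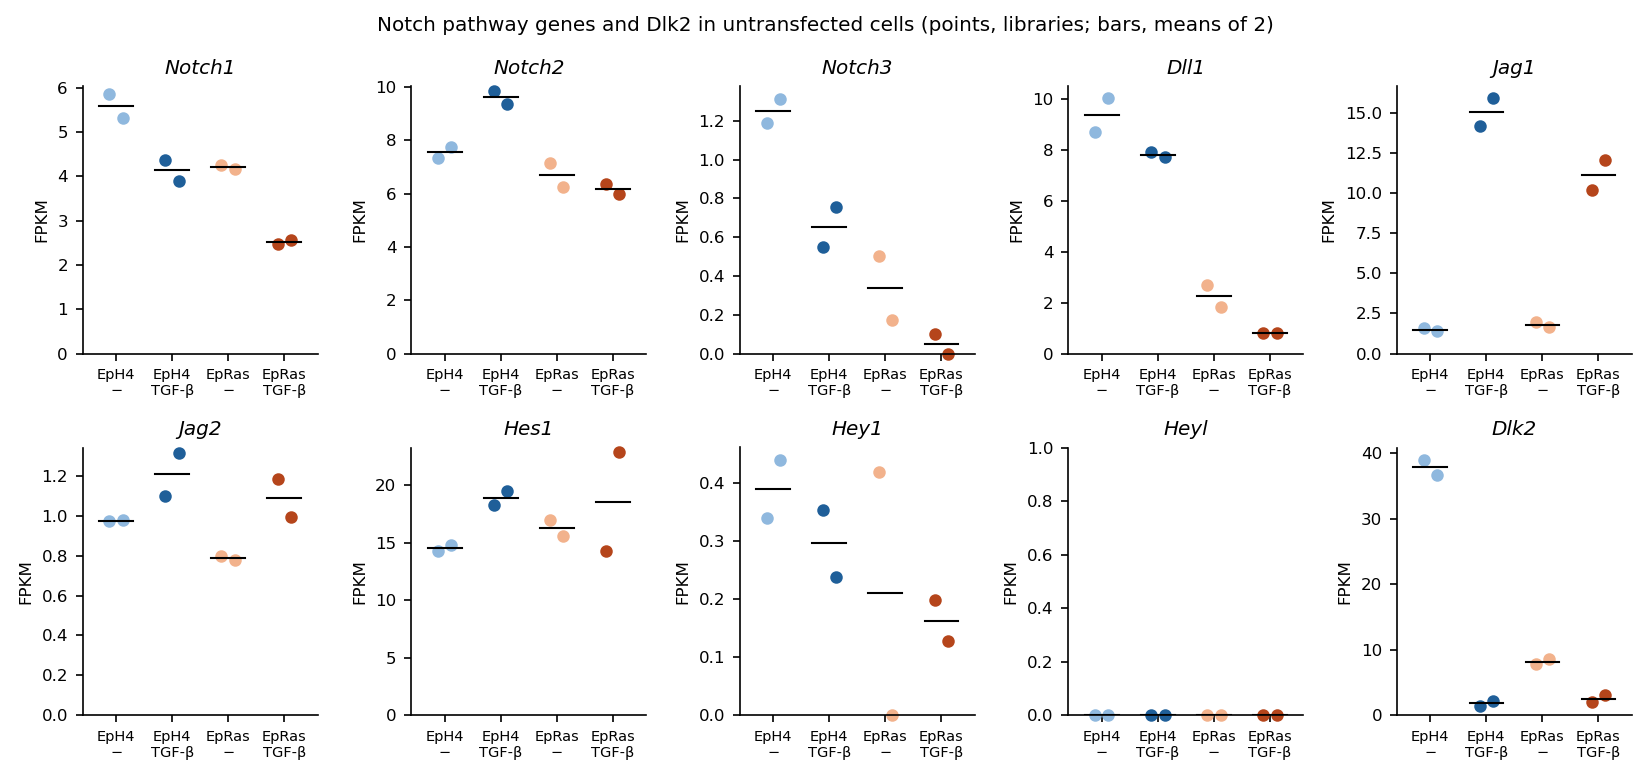
FPKM of the 10 genes in the 8 untransfected libraries, by line and treatment ("−" means untreated); points are libraries, horizontal bars the means of 2, and each panel has its own linear axis from 0. Jag1 is near 1.5 FPKM without TGF-β and above 10 with it in both lines, Dll1 is higher in EpH4 cells, Dlk2 is highest in untreated EpH4 cells, and Heyl is listed at 0 throughout.

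Among the tested genes, the largest fitted differences of the ligand genes Jag1 and Dll1 exceeded those of the receptor genes Notch1 and Notch2. Jag1, a ligand of the Jagged (Serrate) type, was present at 1.61 and 1.38 FPKM in untreated EpH4 cells (50 and 58 reads) and at 14.2 and 16.0 FPKM in treated EpH4 cells (318 and 533 reads). In EpRas cells the untreated libraries gave 1.95 and 1.65 FPKM and the treated libraries 10.2 and 12.1 FPKM. The treated libraries were all far above the untreated ones, and the mean was 10.1-fold higher in EpH4 and 6.19-fold higher in EpRas cells. Jag1 rose with TGF-β by 2.69 ± 0.16 log2 units in EpH4 cells (limma, adjusted p = 0.000177) and by 2.12 ± 0.16 in EpRas cells (adjusted p = 0.000761). The change in EpRas cells minus that in EpH4 cells was -0.57 ± 0.23, which did not pass the test across genes (limma, adjusted p = 0.411). Between the lines, Jag1 levels differed by 0.17 ± 0.16 without TGF-β and by -0.41 ± 0.16 with it, and neither difference passed (adjusted p = 0.519 and 0.115). Jag1 reached the 5 FPKM required for testing only through the TGF-β-treated libraries, the group in which it was high. In a fit with no filter the adjusted p was 0.000638 in EpH4 and 0.00209 in EpRas cells (limma).

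Dll1, a ligand of the Delta type, was measured at 8.71 and 10.0 FPKM in untreated EpH4 cells, at 7.90 and 7.72 in treated EpH4 cells, at 2.69 and 1.82 in untreated EpRas cells and at 0.799 and 0.791 in treated EpRas cells. The EpRas libraries were all below the EpH4 libraries, and in EpRas cells the values came from 10 to 39 reads per library. The mean was 4.17-fold lower in EpRas than in EpH4 cells without TGF-β and 9.82-fold lower with it. On the log2 scale Dll1 was lower in EpRas cells by 1.68 ± 0.17 without TGF-β (limma, adjusted p = 0.000914) and by 2.29 ± 0.17 with it (adjusted p = 0.000158), and both calls held in all 16 fits in which Dll1 was tested. Dll1 reached 5 FPKM only through the EpH4 libraries, the line in which it was high, and with no filter the adjusted p was 0.00196 without TGF-β and 0.000531 with it (limma). With TGF-β, Dll1 fell by 0.84 ± 0.17 in EpRas cells (adjusted p = 0.0455), whereas in EpH4 cells the change was -0.23 ± 0.17 (adjusted p = 0.475). The call in EpRas cells was made in 3 of 16 fits and was lost on leaving out any of the 8 libraries, with adjusted p over all 16 fits from 0.0166 to 0.253 and 0.0504 with no filter. The difference between the lines in this change, -0.61 ± 0.25, did not pass (adjusted p = 0.429). Dll1 shares 1873 bases with A930024N18Rik on the opposite strand.

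Jag2, the other Jagged-type ligand, was near 1 FPKM in all groups, with 0.972 and 0.978 in untreated EpH4 cells, 1.10 and 1.32 in treated EpH4 cells, 0.798 and 0.780 in untreated EpRas cells and 1.18 and 0.994 in treated EpRas cells. It was not tested, and treated libraries lay above untreated ones in both lines on 11 to 32 reads per library.

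Jag1 and Dll1 together made up most of the canonical ligand transcripts, and their proportions differed between the 4 groups (shares chosen after the values were seen, with no test). Of the summed FPKM of Dll1, Dll3, Dll4, Jag1 and Jag2, Dll1 accounted for 77.1% and 81.0% in untreated EpH4 cells and Jag1 for 14.3% and 11.1%. In treated EpH4 cells the share of Dll1 was 33.8% and 30.7% and that of Jag1 60.6% and 63.5%. Untreated EpRas cells had 46.4% and 41.9% Dll1 against 33.8% and 38.0% Jag1, and treated EpRas cells 6.29% and 5.56% Dll1 against 80.5% and 84.7% Jag1. Dll1 was thus the most abundant ligand transcript in all 4 untreated libraries and Jag1 in all 4 treated ones. The summed ligand level was 11.3 and 12.4 FPKM in untreated EpH4 cells and 23.4 and 25.2 in treated ones, and in EpRas cells it was 5.78 and 4.34 without TGF-β and 12.7 and 14.2 with it.

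**Figure D2:**
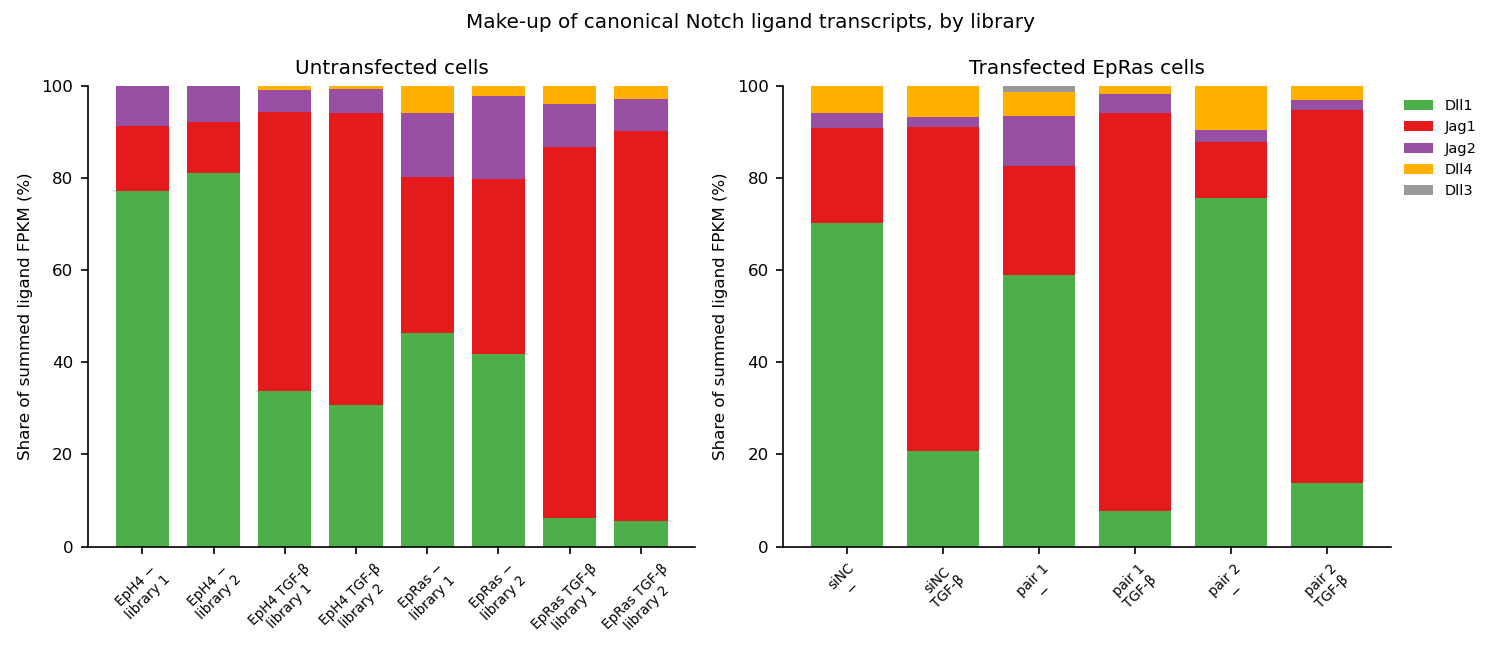
Share, in percent of the summed FPKM of 5 canonical Notch ligands, of each ligand in every library (left, untransfected cells; right, transfected EpRas cells). Jag1 holds 60.6% or more of the sum in every TGF-β-treated library and 38.0% or less in every untreated one.

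Dlk2 encodes a protein with epidermal growth factor-like repeats that resembles Delta-like ligands but lacks the domain through which these bind and activate Notch. It was measured at 39.0 and 36.7 FPKM in untreated EpH4 cells (305 and 389 reads) and at 1.42 and 2.15 FPKM in treated EpH4 cells (8 and 18 reads). In EpRas cells the untreated libraries gave 7.77 and 8.58 FPKM (37 and 76 reads) and the treated libraries 1.94 and 3.07 FPKM (13 and 16 reads). Untreated EpH4 cells were highest by far, untreated EpRas cells were next, and the treated groups overlapped. The mean was 21.3-fold lower with TGF-β in EpH4 cells and 3.27-fold lower in EpRas cells, and it was 4.63-fold lower in untreated EpRas than in untreated EpH4 cells. The fitted log2 differences were -3.82 ± 0.21 with TGF-β in EpH4 cells, -1.41 ± 0.21 in EpRas cells and -2.08 ± 0.21 between the untreated lines, and these values, like the 2.41 ± 0.30 by which the change was smaller in EpRas cells, are given with no p-value because Dlk2 was chosen for them. With TGF-β the lines differed by 0.33 ± 0.21. Dlk2 passed the filter of 5 FPKM through its untreated libraries only.

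Dlk2 lies at chr17:46297421-46303271 on the plus strand, and its end shares 51 bases with Abcc10 on the minus strand. The locus given for Dlk2 in the deposited table spans both genes. Abcc10 itself was at a mean of 0.684 ± 0.14 FPKM (SD, n = 2) in untreated EpH4 cells and of 1.61 ± 0.32 in untreated EpRas cells, and its part in the Dlk2 values was not tested.

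The genes whose pattern over the 8 untransfected libraries was most like that of Dlk2 were Sorbs2 (Pearson r = 0.986 of log2(FPKM + 1)), Phf5a (r = 0.984), Ablim1 (r = 0.983), Ppbp (r = 0.976) and Vps37b (r = 0.971). These correlations describe libraries that share their groups, and untreated EpH4 cells set most of the range. Sorbs2 was at 10.9 and 11.3 FPKM in untreated EpH4 cells, between 2.94 and 3.50 in untreated EpRas cells and between 1.18 and 1.41 in the treated groups. Phf5a followed the same order over a much smaller range, from 55.9 and 55.7 FPKM in untreated EpH4 cells to 35.2 and 39.1 in treated EpH4 cells.

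Of the target genes, Hes1, the repressor most widely used as a readout of Notch activity, was measured at 14.3 and 14.8 FPKM in untreated EpH4 cells, 18.3 and 19.5 in treated EpH4 cells, 17.0 and 15.6 in untreated EpRas cells and 14.3 and 22.9 in treated EpRas cells. The 2 treated EpRas libraries spanned the values of the other groups. None of the Hes1 differences passed, with changes of 0.36 ± 0.22 with TGF-β in EpH4 cells (limma, adjusted p = 0.374) and 0.14 ± 0.22 in EpRas cells (adjusted p = 0.819), and line differences of 0.16 ± 0.22 without TGF-β (adjusted p = 0.672) and -0.06 ± 0.22 with it (adjusted p = 0.867). The sign of the EpRas change and of the line difference under TGF-β depended on which treated EpRas library was used.

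Hey1 was between 0 and 0.439 FPKM in the untransfected libraries, from at most 7 reads, and was not tested. The library listed at 0, from untreated EpRas cells, could hold up to 0.225 FPKM, the level of 3 reads. Heyl was listed at 0 in all 14 libraries, and a level of 3 reads would correspond to between 0.0562 and 0.201 FPKM depending on the library.

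Counts over the 9 Notch genes, of which 5 (Notch1, Notch2, Jag1, Dll1 and Hes1) reached 5 FPKM in any untransfected library and were tested, were as follows. Without TGF-β, 1 of 9 (Dll1) was lower in EpRas than in EpH4 cells, beside 17.6% of all genes tested that were called in either direction and 9.11% that were called lower. Under TGF-β, 3 of 9 (Dll1, Notch1 and Notch2) were lower in EpRas cells, beside 21.3% called in either direction and 12.3% called lower. With TGF-β, 1 of 9 (Jag1) rose in EpH4 cells, beside 9.4% of all genes called and 6.48% called higher, and in EpRas cells 1 rose (Jag1) and 1 fell (Dll1), beside 3.82% called. For the difference between the lines in the TGF-β change, 0 of 9 passed in limma, 2 (Jag1 and Dll1) had an unadjusted p below 0.05, and 0.802% of all genes were called. Notch1, Jag1 and Dll1 entered these tests only through groups in which they were high, so the counts are a description.

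Summed markers of other cell types differed between some of these groups. The 5 fibroblast markers (Col1a1, Col1a2, Pdgfra, Dcn and Lum) summed to between 21.7 and 25.8 FPKM in untreated and between 214 and 239 in treated EpH4 cells, with Dcn and Lum at 0 in both, and to between 4.61 and 5.76 FPKM in the EpRas groups. The 5 basal or myoepithelial markers (Krt5, Krt14, Trp63, Acta2 and Myh11) summed to between 334 and 395 FPKM in untreated EpH4 cells and between 798 and 864 in treated ones. In untreated and treated EpRas cells the sums were 105 to 117 and 64.1 to 66.8 FPKM. Of these 5 markers, 2 were below 1 FPKM in all 8 libraries. Krt5 and Myh11 were at 0 in treated EpH4 cells, Krt5 in untreated EpRas cells, and Krt5 and Trp63 in treated EpRas cells. The 4 leukocyte markers (Ptprc, Cd68, Cd3e and Lyz2) summed to between 1.85 and 2.10 FPKM in untreated and 0.293 and 2.75 in treated EpH4 cells. In EpRas cells they summed to between 3.81 and 4.84 FPKM without TGF-β and 4.11 and 7.13 with it. Ptprc was at 0 in all 8 libraries. Cd3e and Lyz2 were also at 0 in treated EpH4 cells and in both EpRas groups, where the sum was Cd68 alone. Of these 4 markers, 3 were below 1 FPKM in all 8 libraries. The 4 adipocyte markers (Adipoq, Plin1, Cfd and Pparg) summed to between 1.95 and 5.05 FPKM in untreated and 0.452 and 1.15 in treated EpH4 cells, and to between 0.178 and 0.192 in untreated EpRas cells, with Plin1 and Cfd at 0 in all 8 libraries and all 4 at 0 in treated EpRas cells. Endothelial markers summed to at most 0.481 FPKM. The part of these cell types in the Jag1, Dll1 and Dlk2 differences was not tested.

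**Figure D3:**
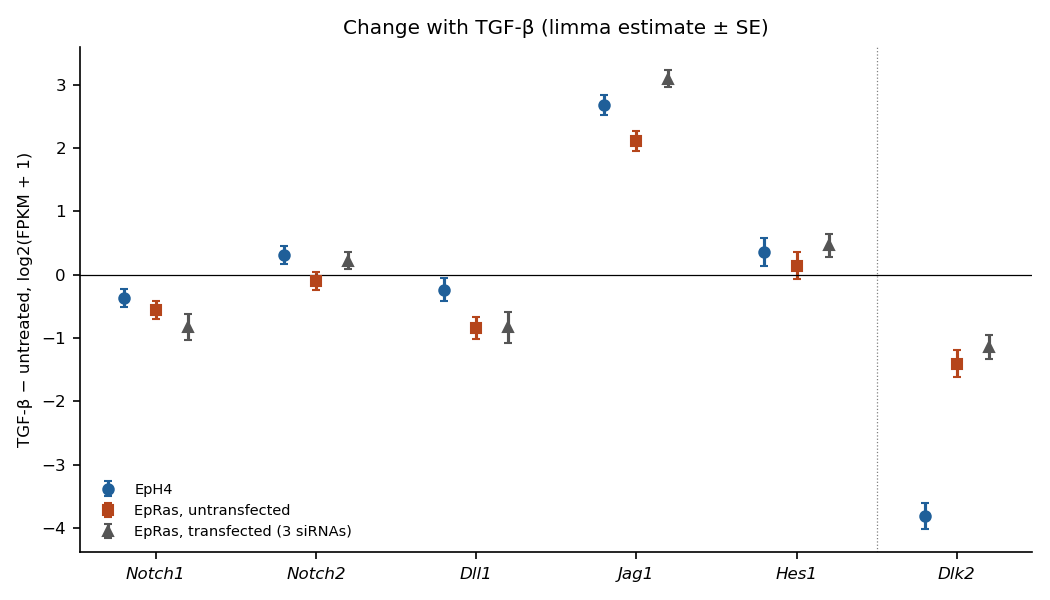
Difference between TGF-β-treated and untreated cells on the log2(FPKM + 1) scale for the 6 members tested, as the limma estimate ± SE in EpH4 (2 against 2 libraries), untransfected EpRas (2 against 2) and transfected EpRas cells (3 against 3). Jag1 lies between 2.12 and 3.10 in all 3 settings, and Dlk2, right of the dotted line and shown as a description, is lowest in EpH4 cells at -3.82.

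A wider list of 63 genes of the pathway, of which 53 are not among the 10 members, was read in the same fits. Of these 53, 34 were tested. Without TGF-β, 1 was higher and 2 were lower in EpRas cells, beside 17.6% of all genes called in either direction and 9.11% called lower, and the median difference of the 34 was 0.18 log2 units, compared with -0.0031 over all genes tested. The lower genes were Poglut1, which adds O-glucose to the receptors' extracellular repeats (-1.15 ± 0.20, adjusted p = 0.00768), and Lfng, a Fringe glycosyltransferase that changes which ligands a receptor answers to (-0.997 ± 0.19, adjusted p = 0.0128). Nrarp, a Notch target that restrains the pathway, was higher (0.95 ± 0.21, adjusted p = 0.0221). Over the fits tried, Poglut1 passed in 16 of 16 and Lfng in 15 of 17, being lost without library 2 of untreated EpH4 (adjusted p = 0.0810) or of untreated EpRas cells (0.0804). Nrarp passed in 12 of 17 and was lost without library 1 of untreated EpH4 (0.115) or untreated EpRas cells (0.124) and without either treated EpH4 library (0.0531).

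Under TGF-β, 1 of the 34 was higher and 5 were lower in EpRas cells, beside 21.3% of all genes called in either direction and 12.3% called lower, with a median of -0.07. Lfng was at 29.4 to 33.9 FPKM in treated EpH4 and at 6.67 to 8.09 FPKM in treated EpRas cells, a difference of -1.96 ± 0.19 (limma, adjusted p = 0.000476). Poglut1 was lower by 1.13 ± 0.20 and Nrarp higher by 1.10 ± 0.21 (adjusted p = 0.00628 and 0.00969). The others that were lower were Ctbp1, which acts as a corepressor (-0.91), and Dtx4 and Itch, ubiquitin ligases linked to receptor turnover (-0.88 and -0.57), with adjusted p between 0.0133 and 0.0494. Lfng passed in 17 of 17 fits. Nrarp (15 of 17), Poglut1 (14 of 16), Dtx4 (13 of 16) and Ctbp1 (12 of 17) were each lost without either treated EpH4 library, with adjusted p between 0.0527 and 0.202, and Ctbp1 also without library 1 of treated EpRas cells (0.124). Itch passed in 5 of 17 and was lost on leaving out any library other than library 1 of treated EpRas cells (0.0653 to 0.258).

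With TGF-β in EpH4 cells, 1 of the 34 rose and 1 fell, beside 9.4% of all genes called, with a median change of 0.14. Furin, the protease that cleaves Notch receptors on their way to the surface, was at 28.8 and 32.1 FPKM in untreated and at 95.7 and 77.1 FPKM in treated EpH4 cells, and rose by 1.47 ± 0.17 (limma, adjusted p = 0.00212). Rbpj, the DNA-binding partner of the receptor's intracellular part, fell by 0.95 ± 0.20 (adjusted p = 0.0269), from 11.5 and 8.497 to 4.74 and 4.52 FPKM. In EpRas cells Furin alone passed, rising by 0.92 ± 0.17 (adjusted p = 0.0301) from 34.7 and 32.1 to 60.1 and 68.0 FPKM, beside 3.82% of all genes called, and the median change of the 34 was -0.03. Furin passed in 17 of 17 fits in EpH4 cells, but in 7 of 17 in EpRas cells, where leaving out any of the 8 libraries lost it (adjusted p from 0.0599 to 0.171). Rbpj passed in 9 of 16 and was lost without any EpH4 or untreated EpRas library (0.0501 to 0.173). None of the 34 passed the test of a different TGF-β change between the lines in limma, beside 0.802% of all genes called, and 4 had an unadjusted p below 0.05.

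**Figure D4:**
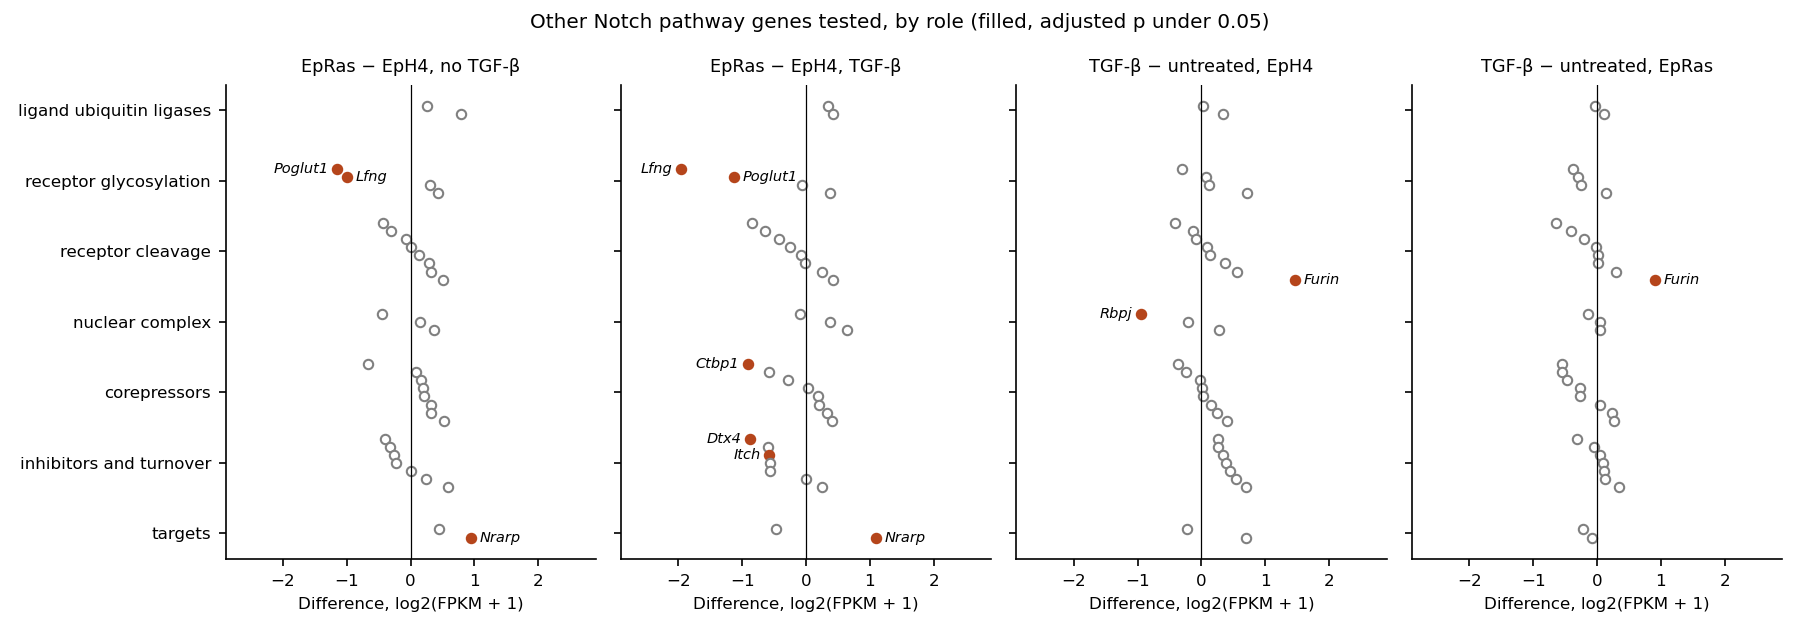
Differences on the log2(FPKM + 1) scale of the 34 other pathway genes tested, by role, in 4 comparisons of untransfected cells; each circle is a gene and filled circles have an adjusted p below 0.05. Lfng and Poglut1 are lower and Nrarp is higher in EpRas cells in both line comparisons, and Furin is higher with TGF-β in both lines.

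FPKM of the siRNA-transfected EpRas cells were computed apart from those of the other cells, so levels are not compared between the sets. In cells given an siRNA pair, Etv4 was between 19.6% and 48.5% of its siNC level and Etv5 between 14.2% and 23.2%, with pair 2 leaving the most Etv4 without TGF-β.

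TGF-β was followed in 3 settings here, siNC, pair 1 and pair 2. The level of Jag1 was 2.62, 2.96 and 2.06 FPKM in untreated and 27.7, 32.1 and 28.2 FPKM in treated libraries, folds of 10.6, 10.8 and 13.7. It rose by 3.10 ± 0.14 log2 units over the 3 pairs of libraries (limma, adjusted p = 0.00335), the call made for 1 of the 9 Notch genes, beside 4.17% of all genes tested. The call was lost when the pair 1 libraries were left out (adjusted p = 0.0800), a fit in which 6 of all genes were called. Jag1 reached 5 FPKM only in the treated libraries here too, and with no filter its adjusted p was 0.0517 (limma). Dlk2 stood at 9.61, 4.10 and 5.17 FPKM in untreated and 2.56, 1.39 and 2.62 FPKM in treated libraries, which is 3.76-, 2.94- and 1.97-fold lower.

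Notch1 gave 4.61, 10.1 and 7.82 FPKM in the untreated libraries and 3.23, 5.59 and 2.56 in the treated ones, lower in each setting, and the mean change of -0.82 ± 0.20 did not pass (limma, adjusted p = 0.0961). Notch3 was likewise lower with TGF-β in each setting, at 1.48, 2.07 and 1.78 FPKM without and 0.580, 0.542 and 0.183 FPKM with it, and was not tested. Notch2 was at 8.87, 5.53 and 8.37 FPKM without and 10.5, 7.61 and 8.76 with TGF-β (0.23 ± 0.14, adjusted p = 0.416). As in untransfected cells, the ratio of Notch2 to Notch1 was higher with TGF-β in each setting, at 1.92 and 3.24 in siNC cells, 0.548 and 1.36 with pair 1, and 1.07 and 3.43 with pair 2.

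Dll1 was lower with TGF-β in each setting, by unequal amounts, with 8.97 FPKM without and 8.13 with TGF-β in siNC cells, 7.34 and 2.87 with pair 1, and 12.8 and 4.76 with pair 2. It was 1.10-fold lower with TGF-β in siNC cells and 2.55- and 2.69-fold lower with the siRNA pairs, and its mean change of -0.83 ± 0.25 did not pass (limma, adjusted p = 0.141). In a fit without the siNC libraries it was called (-1.18, adjusted p = 0.0247). Hes1 was at 19.1, 33.5 and 20.7 FPKM without and 31.1, 34.6 and 33.4 with TGF-β, higher in each setting, with a mean change of 0.46 ± 0.18 (adjusted p = 0.219). Jag2 lay between 0.419 and 1.55 FPKM and Hey1 between 0.0772 and 0.841 FPKM, with Hey1 lower under TGF-β in each setting on 2 to 17 reads. The share of Jag1 among the ligand transcripts was 20.5%, 23.7% and 12.2% without and 70.4%, 86.3% and 81.1% with TGF-β.

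**Figure D5:**
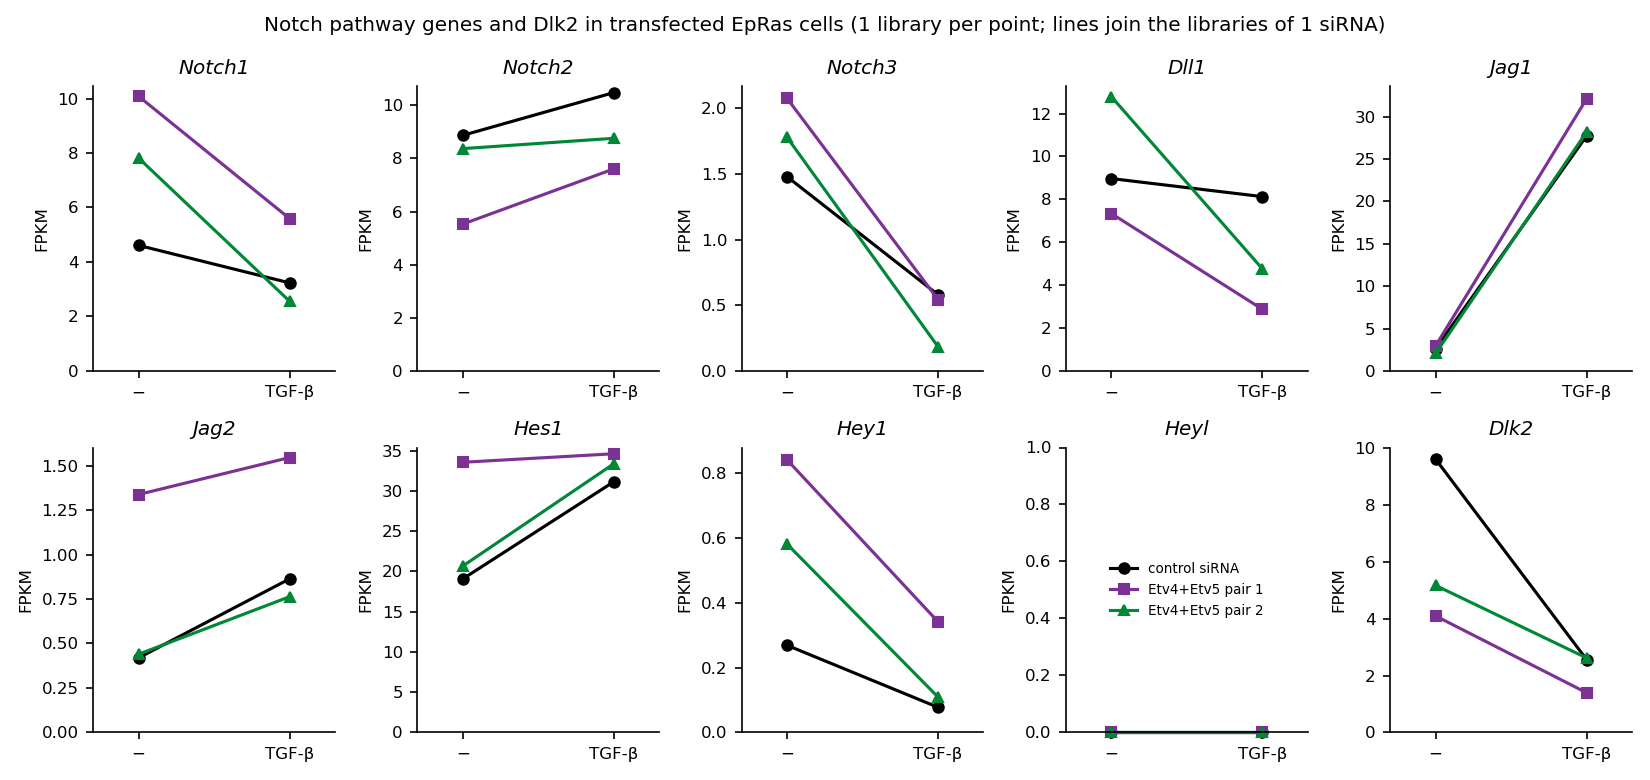
FPKM of the 10 genes in the 6 libraries of transfected EpRas cells, without ("−") and with TGF-β; each point is 1 library and lines join the libraries given the same siRNA. Jag1 is higher and Notch1, Notch3, Dll1, Hey1 and Dlk2 are lower with TGF-β for each siRNA, and without TGF-β Dlk2 is lower and Notch1 higher with both Etv4 and Etv5 siRNA pairs than with siNC.

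Knockdown of Etv4 and Etv5 was read against siNC. The members tested in this table were 6 of the 10 (Notch1, Notch2, Jag1, Dll1, Hes1 and Dlk2). In limma, 0 of these 6 passed for the mean of both pairs, beside 4.63% of all genes tested, and 1 (Dlk2) had an unadjusted p below 0.05. Dlk2, chosen for its TGF-β response with earlier results of these data known, was lower with both pairs than with siNC in untreated cells. It was at 4.10 and 5.17 against 9.61 FPKM (55 and 65 against 95 reads). With TGF-β it was at 1.39 FPKM with pair 1 and 2.62 with pair 2 against 2.56 with siNC, so only pair 1 was lower. The mean difference was -0.60 ± 0.20 (limma, adjusted p = 0.138). Notch1 was higher with both pairs in untreated cells, at 10.1 and 7.82 against 4.61 FPKM, and under TGF-β was higher with pair 1 and lower with pair 2, with a mean difference of 0.51 ± 0.22 (limma, adjusted p = 0.203, and 0.283 with no filter). Notch1 was below 5 FPKM in both siNC libraries and entered the test only through knockdown libraries, so neither this test nor its place in the counts is support.

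With 1 library per condition, genes at least 1.5-fold from siNC in the same direction with both pairs on the FPKM + 1 scale were also counted. Without TGF-β these were Notch1 (higher, 0.98 and 0.65 log2 units) and Dlk2 (lower, -1.06 and -0.78), 2 of the 6 tested members beside 14.2% of all genes tested. With TGF-β this was Dll1 (lower, -1.24 and -0.66), 1 of 6 beside 12.5%. Dll1 was then at 2.87 and 4.76 against 8.13 FPKM, whereas without TGF-β it was below siNC with pair 1 and above it with pair 2. At 2-fold, no member was counted in either condition, beside 4.02% of all genes without TGF-β and 3.82% with it. Jag1 differed little, by 0.03 ± 0.14 in the mean of both pairs (limma, adjusted p = 0.915), and its ratios to siNC lay between 0.786 and 1.16. The mean difference of Dll1 was -0.42 ± 0.26 (adjusted p = 0.350).

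Notch2 was below siNC with both pairs in both conditions (-0.33 ± 0.15, limma, adjusted p = 0.220), and Hes1 was above siNC in both (0.28 ± 0.19, adjusted p = 0.378), by the FPKM given above. The members not tested showed small values throughout. Notch3 was at 2.07 and 1.78 FPKM with the pairs against 1.48 with siNC in untreated cells, and at 0.542 and 0.183 against 0.580 in treated cells. Jag2 was at 1.34 and 0.439 against 0.419 FPKM in untreated cells and at 1.55 and 0.763 against 0.863 in treated cells, higher than siNC in both conditions with pair 1 only. Hey1 was at 0.841 and 0.581 against 0.269 FPKM in untreated cells and at 0.341 and 0.109 against 0.0772 in treated cells, higher with both pairs on 2 to 17 reads, and Heyl was listed at 0.

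The siRNA pairs were also compared with each other, and 0 of the 6 tested members and 0% of all genes passed in limma. The differences closest to passing were those of Notch1, 0.61 ± 0.25 higher with pair 1 (adjusted p = 0.381), and Dll1, -0.65 ± 0.31 (adjusted p = 0.442), and Notch2, Jag1, Hes1 and Dlk2 had adjusted p between 0.457 and 0.547. Of the 34 other pathway genes tested in transfected cells, 1 was higher and none lower after knockdown in limma, beside 4.63% of all genes called, and 9 had an unadjusted p below 0.05. Lfng was higher by 1.005 ± 0.17 (adjusted p = 0.0427), at 11.7 and 11.8 against 6.53 FPKM without TGF-β and at 14.1 and 14.5 against 5.42 FPKM with it. With TGF-β, 2 of the 34 rose and none fell, beside 4.17% of all genes called. Furin rose by 1.17 ± 0.13 (adjusted p = 0.0178) and Fbxw7, which marks the receptor's intracellular part for degradation, by 0.79 ± 0.13 (adjusted p = 0.0389). Lfng passed in 5 of 9 fits and was lost on leaving out pair 1 (adjusted p = 0.197) or pair 2 (0.109), Furin in 7 of 10 (0.182 and 0.106) and Fbxw7 in 4 of 9 (0.253 and 0.202, and 0.0548 without siNC).

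In the transfected cells the basal or myoepithelial markers summed to 109 FPKM in siNC, 260 in pair 1 and 365 in pair 2 libraries without TGF-β, and to 141, 416 and 258 with it. This sum was higher with both pairs than with siNC in both conditions, but 3 of the 5 markers were below 1 FPKM in all 6 libraries. Krt5 was at 0 in each library except siNC with TGF-β. Trp63 was at 0 in siNC without TGF-β and in pair 1 with it. The fibroblast markers summed to 4.42, 19.4 and 7.11 FPKM without TGF-β and to 9.51, 33.0 and 10.4 with it, higher than siNC with both pairs and higher with TGF-β in each setting, with Lum at 0 in all 6 libraries. The leukocyte markers summed to 6.14, 2.83 and 3.94 FPKM without TGF-β and to 6.52, 2.63 and 3.37 with it. This sum was lower with both pairs, with Cd3e at 0 and 3 of the 4 markers below 1 FPKM in all 6 libraries. The 6 epithelial markers summed to 2908, 3099 and 2919 FPKM without TGF-β and to 3483, 4570 and 4079 with it. This sum was higher with TGF-β in each setting. Endothelial markers summed to at most 2.01 and adipocyte markers to at most 0.374 FPKM. The part of these cell types in the Jag1, Dlk2, Notch1 and Lfng differences was not tested.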

How the data were processed

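RNA-seq of 14 libraries (polyA RNA, Ion Proton, directional) was analysed from the deposited tables. Per the labels and the study's methods, the authors aligned reads to mm10 with TopHat2 (version 2.0.11) and computed FPKM with Cuffdiff of Cufflinks (version 2.2.0), in separate runs for the 8 untransfected and 6 siRNA libraries, and the deposited FPKM carry confidence bounds that were not used in tests. Whether counting used the strand is not given in the sources used here. The tables were never joined.

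The members and gene lists were chosen with earlier results of these data known. Genes listed as OK in all libraries and reaching 5 FPKM in at least 1 library of a table (9100 untransfected, 9094 siRNA) were tested with limma 3.58.1 (R 4.3.3) on log2(FPKM + 1), so fold changes of low genes are understated. The untransfected fit had 4 group means and 4 residual degrees of freedom. The siRNA fit had terms for siRNA and TGF-β and 2 residual degrees of freedom, so libraries of other conditions stood in for replicates. P-values were adjusted over all genes tested by Benjamini-Hochberg, with a threshold of 0.05, two-sided. The scripts were tested on simulated data.

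All 10 members are named in each comparison with siNC or between groups, those under 5 FPKM by their values only, and the comparison of the siRNA pairs covers the 6 tested, with other pathway genes named where their adjusted p was below 0.05 (at most 8 by size). An item of the wider list is not reported here. Pathway counts are given beside the median of all genes, and correlations with Dlk2 as a description. Depth was recovered from the steps between FPKM values of low genes, with counts taken as whole within 0.1 of a read, which held for 82.7% of calibration genes in the untransfected and 77.6% in the siRNA table. The search allowed a 25% deviation from the annotated length, set after seeing the data. Notch2 in the siRNA table gave no whole reads. Floors and read numbers cover counting error only, and reads carry no molecular identifiers. Promoter sequences come from RefSeq (GRCm38.p6), gene positions from GENCODE M21. Alternatives were other pseudocounts, filters, scaling, variance priors, the Tukey-Kramer test, a replicate block and leaving out libraries.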

Additional observations from a re-analysis of the deposited data

How the results depend on the processing

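Main counts of called Notch genes were 1 and 3 for the lines without and with TGF-β, 1 and 2 for TGF-β in EpH4 and EpRas cells, 1 for TGF-β in transfected cells and 0 for the knockdown. Requiring a mean of 10 FPKM gave 0 in each of the 4 untransfected comparisons that had calls, since of the Notch genes only Hes1 is then tested. Without a filter the line comparison without TGF-β gave 2, Notch3 being added (-0.76, adjusted p = 0.0242), that under TGF-β gave 4, with Notch3 added to Dll1, Notch1 and Notch2 (-0.65, adjusted p = 0.0331), TGF-β in EpRas cells gave 2, Jag1 and Notch1, with Dll1 lost, and TGF-β in transfected cells gave 0, in a fit that called 1 gene in all. A Tukey-Kramer test on FPKM, adjusted over the group pairs of a gene and not over genes, gave 3 for the lines without TGF-β, with Notch1 and Notch3 added, and 3 for TGF-β in EpH4 cells, with Notch1 and Notch2 added. It gave 4 for the lines under TGF-β, with Jag1 added, and 2 for TGF-β in EpRas cells, Jag1 and Notch1, with Dll1 lost. For the lines under TGF-β, fitting only the 2 groups gave 1 and leaving out single libraries gave 1 to 3. For TGF-β in EpRas cells, a pseudocount of 5 FPKM, a trended prior, only the 2 groups, and leaving out single libraries (1 to 1) each gave 1, Dll1 being lost. For TGF-β in transfected cells, leaving out siNC gave 2 and leaving out pair 1 gave 0. The counts past 1.5-fold, 2 and 1, became 0 at 2-fold. The cause of these shifts was not tested.

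Same-numbered libraries deviated together only weakly or oppositely (correlations from -0.347 to 0.0785), and the main fit did not pair them by number. Whether libraries shared a batch was not tested. A replicate block gave 1 for the lines under TGF-β and 1 for TGF-β in EpRas cells.

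The genes called in the wider list were refitted under the same alternatives, a choice made after seeing the data, and none of them changed sign. Among the members, Notch3, Jag2 and Hey1 were fitted only without a filter and Heyl was not followed. Of the others, Hes1 and Jag1 changed sign, without passing the threshold. Without library 1 of treated EpRas cells the Hes1 line difference under TGF-β was 0.26 (-0.38 to 0.26 over left-out libraries) and the difference of its TGF-β changes 0.11 (-0.54 to 0.11), without library 2 its TGF-β change in EpRas cells was -0.18 (-0.18 to 0.46), and without pair 1 the Jag1 knockdown difference was -0.11. Rescaling moved the median of all genes by less than 0.1 log2 units in each comparison. In untransfected libraries depth limits Hey1 (at most 7 reads), Notch3 (0 to 81), Jag2 (11 to 32), Dll1 in treated EpRas cells (10 and 13) and Dlk2 under TGF-β (8 to 18), and Heyl is listed at 0.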
